A study of Mus musculus with 21 samples.

Results

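Cxcl10+ monocytes were the 1853 cells, of 87822 cells in all, that the study's Harmony integration placed in a cluster named Monocyte (Cxcl10+). Harmony, BBKNN and Scanorama are 3 methods that merge single-cell libraries into a common space, and the study clustered and named the cells separately after each of them. Membership was taken from the Harmony label as deposited, and no threshold on a measured value was applied. The level of Cxcl10 itself was not analysed here, because the values used were labels and per-cell totals and not counts of single genes. The name of the cells could therefore be compared with the labels from BBKNN and Scanorama but not with the marker transcript.

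Cxcl10 encodes a small chemokine that interferons induce, and it binds the receptor Cxcr3 on T cells and natural killer cells. Monocytes enter injured muscle from the blood, take up debris from dying fibres and can turn into macrophages. In skeletal muscle the early inflammatory monocytes give way to macrophages that accompany the growth of new fibres, and cells with an interferon response form a recognised subset among them.

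The cells came from tibialis anterior muscle of 21 female C57Bl/6J mice aged 20 months, with 1 mouse per library. Notexin, a snake venom phospholipase that destroys muscle fibres, was injected into both tibialis anterior muscles of the injured mice. Muscle was taken at 5 times between 1 and 7 days after the injection (days post injury, dpi), and the uninjured mice stood for day 0. The uninjured, 1 dpi and 3.5 dpi groups held 4 mice each, and the 2, 5 and 7 dpi groups held 3 mice each. All groups were of the same strain, sex and age, so the comparison was one of time after injury in aged muscle. The study recorded each mouse as an independent experiment, and letters A to D below name the mice within a group. It also reported that samples of several time points were collected together, and the day of collection was not used here.

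Libraries held 974 to 10556 cells, with 15035 to 117596 mean reads per cell and a sequencing saturation of 28.1% to 87.4%. The 1853 member barcodes were 1853 distinct sequences, so no member barcode was shared between libraries. DoubletFinder had called every member a singlet, which was fixed in advance because the study removed putative doublets before integration. Cells without a Harmony label made up at most 11.3% of a library. A few libraries stood apart in ways that touch the results. Myeloid cells were 36.7% of the cells in 1 dpi mouse B and 66.2% to 71.0% in the other 1 dpi mice. In 7 dpi mouse C the Cxcl10+ monocytes were a larger share of cells than in the other 7 dpi mice. In the uninjured mice most of the few members were called endothelial by the other methods, and the mean uninjured shares are given with and without those cells. The folds against uninjured muscle hold all members.

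The uninjured muscle held 22 of the 1853 members among 11683 cells. Members were 4 of 2267 cells in mouse A (0.176%, 95% exact binomial interval 0.0481 to 0.451%), 6 of 3413 in B (0.176%, 0.0645 to 0.382%), 11 of 5029 in C (0.219%, 0.109 to 0.391%) and 1 of 974 in D (0.103%, 0.00260 to 0.571%). BBKNN called 17 of these 22 cells endothelial, which were 3 cells in A, 4 in B, 9 in C and 1 in D. Scanorama put 15 of the 22 in its endothelial class, 1 of them under the name pericyte. Those methods therefore went against the monocyte name for most of the uninjured members. Without the cells that BBKNN called endothelial, 5 members remained in the 4 uninjured libraries. Both BBKNN and Scanorama placed 3 of the 22 among monocytes or macrophages. After injury the share that BBKNN called endothelial was 0 to 13.4% per mouse, with a median of 3.64%. Uninjured libraries were rich in endothelial cells by the Harmony label, at 25.7% to 71.3% of cells. Whether that bears on the calls was not tested.

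After injury the Cxcl10+ monocytes became a readily counted population. They were 95 of 2912 cells in 1 dpi mouse A, 19 of 1197 in B, 109 of 4530 in C and 128 of 3838 in D. At 2 dpi they were 347 of 10556 cells in A, 142 of 4598 in B and 119 of 3184 in C. At 3.5 dpi they were 117 of 3131 in A, 73 of 2631 in B, 175 of 6746 in C and 111 of 3895 in D. The 2 dpi library of mouse A thus gave the largest number of members, and it was also the library with the most cells. At 5 dpi there were 126 of 5321 cells in A, 119 of 8472 in B and 41 of 2655 in C. At 7 dpi there were 25 of 5968 in A, 30 of 4241 in B and 55 of 2264 in C. The members carried 200197 to 1888229 UMIs per injured mouse, a UMI being 1 tagged transcript molecule, and 0.517% to 4.80% of the UMIs of the library.

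As a share of all cells the members were highest at 2 dpi. The shares were 3.26%, 1.59%, 2.41% and 3.34% in the 1 dpi mice A to D, and 3.29%, 3.09% and 3.74% in the 2 dpi mice A to C. They were 3.74%, 2.77%, 2.59% and 2.85% in the 3.5 dpi mice, 2.37%, 1.40% and 1.54% in the 5 dpi mice, and 0.419%, 0.707% and 2.43% in the 7 dpi mice. The uninjured group had a mean of 0.168% ± 0.0482 (SD, n = 4). The mean rose to 2.65% ± 0.823 (n = 4) at 1 dpi and was highest, 3.37% ± 0.333 (n = 3), at 2 dpi. It was 2.99% ± 0.510 (n = 4) at 3.5 dpi and then 1.77% ± 0.521 for the 3 mice of 5 dpi and 1.19% ± 1.09 for the 3 mice of 7 dpi. Each of the 17 injured mice lay above each of the 4 uninjured mice. The low value at 1 dpi was that of mouse B (95% interval 0.958 to 2.47%), the library with few myeloid cells, and the high value at 7 dpi was that of mouse C (1.84 to 3.15%).

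The share of all cells changed over the time course (permutation test of the F statistic over 21 mice with 100000 draws, adjusted p = 0.000256 over 23 cell types). Such change was common in these muscles, since 78.3% of the 23 types passed the same test and 47.8% passed it with a rise. The test also passed over the 17 injured mice alone, with an adjusted p of 0.0346. It passed without the members that BBKNN called endothelial, with an adjusted p of 0.000102 in that permutation test. With immune cells in place of all cells as the denominator it did not pass (adjusted p = 0.382). A share falls when its cells are lost or when other cells arrive, and these cannot be told apart in counts of dissociated cells.

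**Figure D1:**
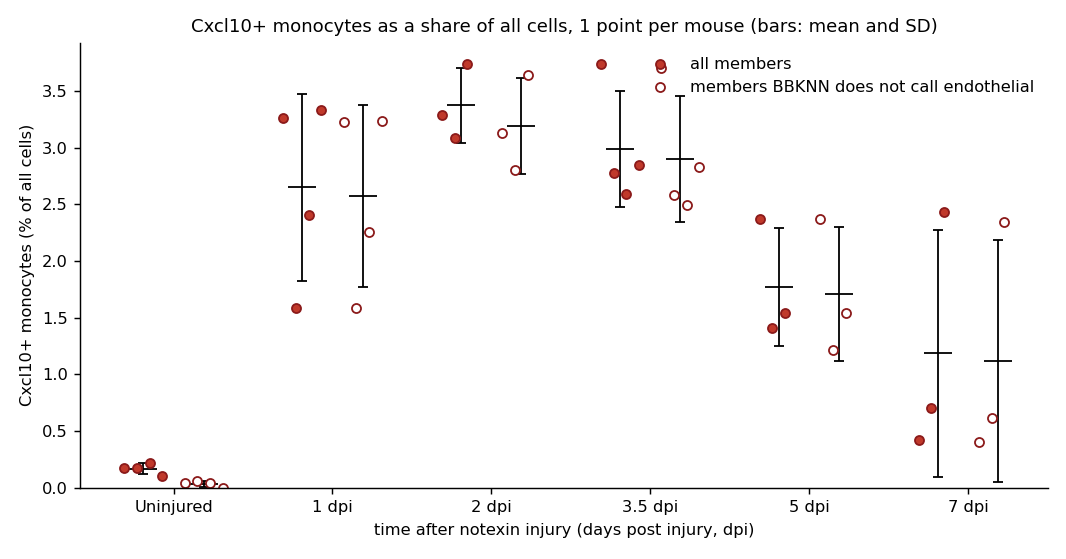
Cxcl10+ monocytes as a percentage of all cells (y axis) by time after injury (x axis), with 1 point per mouse and the mean and SD of each group as bars. Filled points hold all members and open points leave out those that BBKNN called endothelial, and in both sets each injured mouse, from 0.419% to 3.74% in the filled set, sits above each uninjured mouse.

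Between single time points, the members were 15.7-fold higher at 1 dpi than in uninjured muscle, 20.0-fold at 2 dpi, 17.7-fold at 3.5 dpi, 10.5-fold at 5 dpi and 7.04-fold at 7 dpi. The groups did not overlap in any of these 5 comparisons. All myeloid cells together had a mean of 1.69% of cells in uninjured muscle. After injury that mean was 60.6%, 66.2%, 69.3%, 37.1% and 15.9% at the 5 times in order. Of the 23 cell types, 30.4% were higher without overlap at 1 dpi, 34.8% at 2 dpi, and 43.5% at each of 3.5, 5 and 7 dpi. Each of the 5 differences had an exact two-sided permutation p of 0.0286, the smallest that 4 against 4 or 4 against 3 mice allow, and an adjusted p of 0.0768 over the 207 tests of all types, so none passed 0.05. Without the members that BBKNN called endothelial the uninjured mean was 0.0356% ± 0.0251 (SD, n = 4) and the 2 dpi mean 3.19% ± 0.423 (n = 3). In that setting the means at 1, 3.5, 5 and 7 dpi were 2.57%, 2.90%, 1.71% and 1.12%, and no injured group overlapped the uninjured mice. The folds would thus be larger than those above. That uninjured share rested on 5 cells, so the size of the fold was poorly fixed, while its direction was shown by each mouse.

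Among neighbouring time points the fall came between 3.5 and 5 dpi. The mean was 0.593 of its earlier value, the groups did not overlap, and the exact two-sided permutation p was 0.0286 (adjusted p = 0.0768). In this interval 17.4% of the types were lower without overlap. The 1 and 2 dpi groups overlapped (exact permutation p = 0.257), as did the 2 and 3.5 dpi groups (p = 0.314) and the 5 and 7 dpi groups (p = 0.5). Those differences were within the spread between mice. With 3 mice against 3, as for 5 and 7 dpi, the smallest p is 0.1. Mouse C decided the last of these comparisons, because without it the 7 dpi mice lay below all 5 dpi mice, by 1.21 percentage points in the mean. Without it the 7 dpi mean was 3.34-fold that of uninjured muscle. Likewise, without 3.5 dpi mouse A the 3.5 dpi mice lay below all 2 dpi mice, by 0.631 percentage points in the mean.

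Within the myeloid compartment the picture after injury was flat. Members were 4.59%, 4.33%, 3.52% and 5.04% of the myeloid cells in the 1 dpi mice A to D, and 4.71%, 4.32% and 6.52% in the 2 dpi mice A to C. They were 5.63%, 4.20%, 3.63% and 3.89% in the 3.5 dpi mice and 4.50%, 4.66% and 5.40% in the 5 dpi mice. At 7 dpi they were 3.86% in mouse A, 4.35% in B and 11.9% in C, where the 95% interval was 9.06 to 15.1%. In 16 of the 17 injured mice the share thus lay between 3.52% and 6.52%, and mouse C at 7 dpi lay outside. Mouse B at 1 dpi, low as a share of all cells, was within the range of its group here.

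The share of myeloid cells did not pass the test over the 17 injured mice (adjusted p = 0.689 in the permutation test) and did not without 7 dpi mouse C (adjusted p = 0.511). The highest of the 5 group means after injury was 1.54 times the lowest, or 1.26 times without mouse C. The same ratio was 13.4 for neutrophils, 3.44 for dendritic cells, 2.62 for inflammatory monocytes, 2.61 for Cx3cr1_hi M2 macrophages, 2.42 for patrolling monocytes and 1.49 for Cx3cr1_lo M2 macrophages. These ratios are given as a description. Over the same interval the myeloid compartment itself went from 57.3% to 73.2% of cells at 2 and 3.5 dpi to 10.8% to 20.5% at 7 dpi.

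Uninjured muscle set the result of the whole time course within myeloid cells, and it depended on the cells that the other methods called endothelial. The uninjured mice held only 11 to 91 myeloid cells each, of which members were 12.1%, 6.59%, 14.5% and 9.09% in A to D, with a mean of 10.6% ± 3.45 (SD, n = 4). With these mice the share changed over the time course (adjusted p = 0.0166 over 7 types, where 100% of the types passed), and it was lower without overlap at 1 dpi (28.6% of types lower), 2 dpi (57.1%), 3.5 dpi (42.9%) and 5 dpi (42.9%). The exact permutation p of these comparisons was 0.0286 at 1 and 3.5 dpi and 0.0571 at 2 and 5 dpi, and none passed after adjustment over 63 tests (0.0818 and 0.124). When the members that BBKNN called endothelial were left out, the uninjured shares became 3.03%, 2.20%, 2.63% and 0, with a mean of 1.96% ± 1.35 (n = 4), and lay below those of the 17 injured mice, which were 3.29% to 11.4%. The test passed in this setting also (adjusted p = 0.0211), but with the direction turned round. With all members, it did not pass without uninjured mouse C (adjusted p = 0.0562). Whether the Cxcl10+ monocytes were a larger or a smaller part of the myeloid cells before injury therefore hung on 17 cells.

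**Figure D2:**
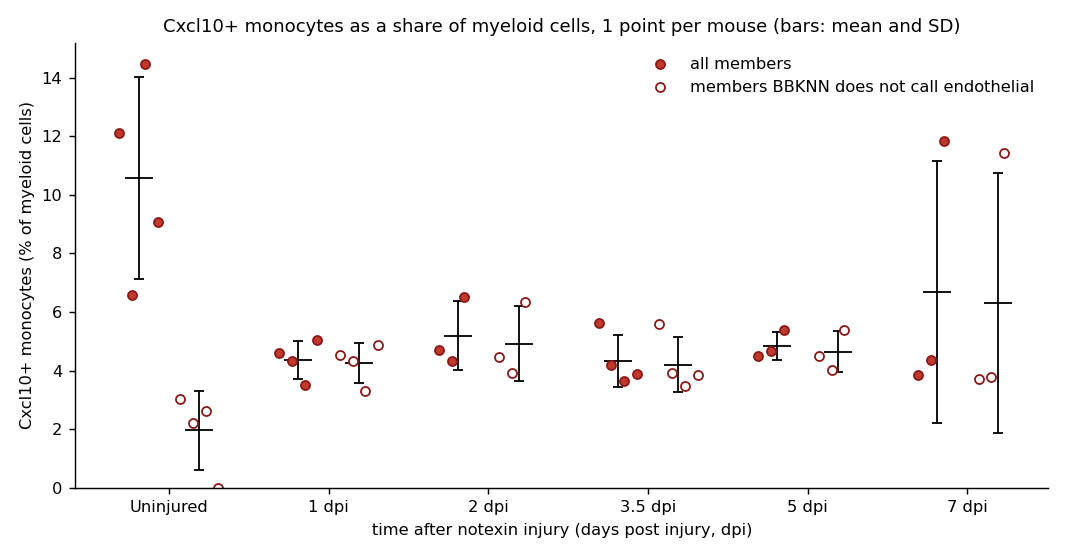
Cxcl10+ monocytes as a percentage of myeloid cells (y axis) by time after injury (x axis), with 1 point per mouse and the mean and SD of each group as bars. The filled points, all members, put the uninjured mean at 10.6%, the open points without members called endothelial by BBKNN put it at 1.96%, and the injured mice lie near each other in both sets apart from mouse C at 7 dpi.

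The number of members was also set against that of each other myeloid type. The measure was the log2 ratio of the number of members to the number of cells of the other type in the same mouse, with 0.5 cells added to both. Of the 6 ratios, 5 changed over the whole time course (adjusted p under the threshold for 83.3%) and 4 over the 5 time points after injury (66.7%). No ratio between other myeloid types was tested, so these are not background shares. A ratio also moves when only the other type moves. From 1 to 3.5 dpi the members went from a mean of 4.37% to 4.34% of myeloid cells. Over that time neutrophils went from 18.8% to 1.41%, inflammatory monocytes from 30.9% to 12.1% and patrolling monocytes from 16.5% to 36.8%. Log2 ratios are given per mouse or as means over mice, and numbers per 100 cells are pooled over the mice of a time point.

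Neutrophils, the phagocytes that enter damaged tissue early, gave the widest swing. The log2 ratio was -2.34, -1.89, -2.43 and -1.69 in the 1 dpi mice A to D, 0.22, -0.09 and 1.71 in the 2 dpi mice, and 2.59, 1.71, 0.88 and 1.39 in the 3.5 dpi mice. Members went from 22.5 per 100 neutrophils at 1 dpi to 267 per 100 at 3.5 dpi, and the 1 dpi mice lay below all later mice. By 5 dpi the mean was 1.59 ± 0.77 (SD, n = 3) and by 7 dpi 1.17 ± 0.55 (n = 3). The change after injury passed the permutation test (adjusted p = 0.00102 over 6 types, 17 mice).

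Inflammatory monocytes, which arrive early and carry much of the acute inflammatory programme, outnumbered the members throughout. The log2 ratio was -2.61, -2.89, -2.99 and -2.78 in the 1 dpi mice, and the 2 dpi mean was -1.75 ± 0.64 (SD, n = 3). Later means were -1.48 ± 0.50 for the 4 mice of 3.5 dpi, -1.28 ± 0.18 for the 3 of 5 dpi and -1.22 ± 0.73 for the 3 of 7 dpi. The 1 dpi mice lay below every later mouse. The change after injury passed (adjusted p = 0.00940), and over all 21 mice the adjusted p was 0.0291, a call lost when any of the 4 mice at 1 dpi was left out (0.0575 to 0.0771).

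Patrolling monocytes moved the other way up to 3.5 dpi. The name is in general use for monocytes that survey vessel walls. The study described its patrolling monocytes as high in Fabp5 and negative for Cx3cr1 and Ly6c2, and their behaviour was not tested. The mean log2 ratio of members to them was -1.90 ± 0.49 (SD, n = 4) at 1 dpi, -2.86 ± 0.23 for the 3 mice of 2 dpi and -3.10 ± 0.25 for the 4 mice of 3.5 dpi. It came back to -2.19 ± 0.22 (n = 3) by 5 dpi and -1.37 ± 1.03 (n = 3) by 7 dpi. Members were thus scarcest against patrolling monocytes at 3.5 dpi, with 11.4 per 100. The change after injury passed the permutation test (adjusted p = 0.00663).

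Against both M2 macrophages the ratio did not pass after injury in all 17 mice, and mouse C at 7 dpi decided both calls. For Cx3cr1_hi M2 macrophages, named for a high level of the fractalkine receptor, the log2 ratio was -0.88, -1.09, -1.19 and -0.85 in the 1 dpi mice and -1.12, -1.16 and -1.06 in the 2 dpi mice. It was -1.90, -2.19, -2.42 and -2.46 in the 3.5 dpi mice, -2.43, -2.23 and -2.02 in the 5 dpi mice, and -2.70, -2.44 and -0.10 in the 7 dpi mice. Mouse C lay above every other injured mouse here, while the 3.5 and 5 dpi mice lay below every 1 and 2 dpi mouse. The adjusted p after injury was 0.0591 with that mouse and 0.00072 without it. For Cx3cr1_lo M2 macrophages the means at the 5 times in order were -1.67, -1.80, -2.17, -2.05 and -1.81, with an adjusted p of 0.532, which became 0.00933 without 7 dpi mouse C.

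Dendritic cells are the antigen-presenting cells of the compartment. The mean log2 ratio of members to them was -0.61 ± 0.50 (SD, n = 4) at 1 dpi, -0.54 ± 0.52 for the 3 mice of 2 dpi and -0.38 ± 0.66 for the 4 mice of 3.5 dpi. It then dropped to -1.75 ± 0.03 (n = 3) by 5 dpi, with -1.74 ± 0.74 (n = 3) by 7 dpi. The 5 dpi mice lay below all mice of 1 to 3.5 dpi. The change after injury passed the permutation test (adjusted p = 0.0251).

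**Figure D3:**
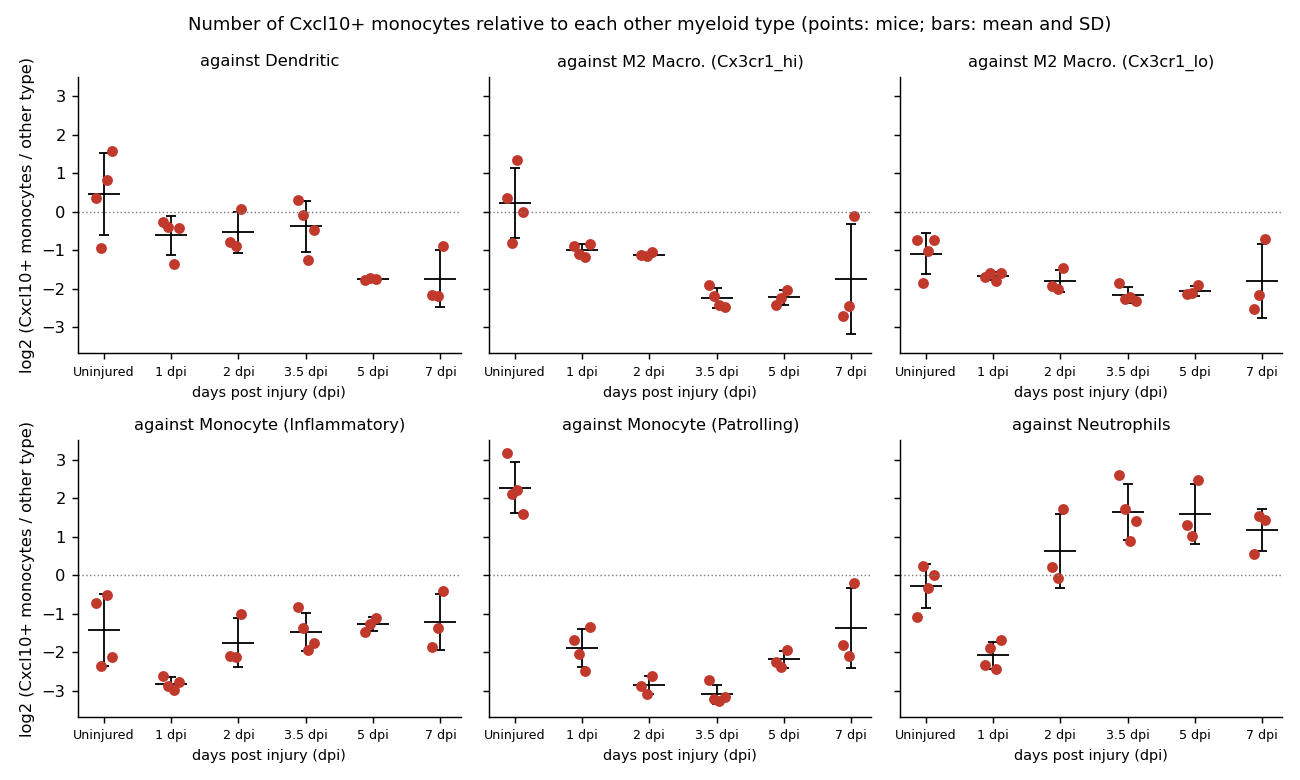
Log2 ratio of the number of Cxcl10+ monocytes to that of each of the 6 other myeloid types (y axis, 0.5 cells added to each number) by time after injury (x axis), with 1 point per mouse and bars for the mean and SD. Against neutrophils the ratio rises from -2.09 at 1 dpi to 1.64 at 3.5 dpi, and in the panels for both M2 macrophages mouse C at 7 dpi stands above the other 7 dpi mice.

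The labels that the other methods gave to the members differed between time points, which came from different mice, so no cell was followed. Neither BBKNN nor Scanorama had a cluster named for Cxcl10, so each of the 1853 cells carried some other name there. Among the members BBKNN called 428 inflammatory monocytes, 155 infiltrating monocytes and 99 endothelial cells, with most of the rest called Cx3cr1_hi M2 macrophages. Scanorama called 704 patrolling monocytes, 567 inflammatory monocytes, 385 infiltrating monocytes and 143 Cx3cr1_lo M2 macrophages. A further deposited label is named prefilter, and the clustering and the filter it refers to were not described. By that label 1607 members (86.7%) were inflammatory monocytes and 181 (9.77%) dendritic cells.

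At 1 dpi the members were mostly inflammatory monocytes to both methods. BBKNN gave that name to 65.3%, 63.2%, 66.1% and 83.6% of members in mice A to D, and Scanorama gave it to 75.8%, 78.9%, 76.1% and 91.4%. In each of these mice the share was above that among the other myeloid cells, which was 41.1% to 53.8% for BBKNN and 58.1% to 71.8% for Scanorama.

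At 2 dpi the names were split. BBKNN called 33.1%, 21.1% and 10.1% of the members of mice A to C inflammatory monocytes and 46.4%, 44.4% and 67.2% Cx3cr1_hi M2 macrophages. Scanorama called 42.1%, 35.2% and 34.5% inflammatory and 51.0%, 47.2% and 55.5% infiltrating monocytes. The infiltrating name is used for cells recently arrived from blood. It was given to a mean of 64.0% of the other myeloid cells by Scanorama, and the members were lower in each of the 3 mice. The BBKNN Cx3cr1_hi share had a mean of 4.57% among the other myeloid cells, below the members in each mouse.

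From 3.5 dpi on, the members had a single main name in each method. BBKNN called 91.5%, 69.9%, 89.1% and 85.6% of them Cx3cr1_hi M2 macrophages in the 3.5 dpi mice A to D, 96.8%, 82.4% and 95.1% in the 5 dpi mice and 80.0%, 76.7% and 85.5% in the 7 dpi mice. Scanorama called 89.7%, 67.1%, 79.4% and 86.5% patrolling monocytes at 3.5 dpi, 89.7%, 71.4% and 82.9% at 5 dpi and 64.0%, 66.7% and 67.3% at 7 dpi. The patrolling share had been at most 2.11% in any mouse at 1 or 2 dpi. In 7 dpi mouse C, where members were a larger share of cells than in the other 7 dpi mice, these main names had shares close to those in mice A and B. Scanorama called 14.5% of its members inflammatory monocytes, against 8% in A and 6.67% in B, and none of them Cx3cr1_lo M2 macrophages, against 20% and 16.7%.

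Both changes in naming passed the test over the 17 injured mice (permutation test of the F statistic, adjusted p = 3e-05 for the Cx3cr1_hi share in BBKNN and for the patrolling share in Scanorama, 2 of 2 labels or 100%). The 2 labels tested were the most frequent names of these same members in each method. No other label and no other cell type was put to this test, so the 100% is not a background share. The BBKNN, Scanorama and Harmony labels were made from the same transcripts, so they are not separate measurements of the cells. The other myeloid cells of the same mice moved too. Among them the BBKNN Cx3cr1_hi share rose from a mean of 1.94% ± 1.65 (SD, n = 4) at 1 dpi to 50.3% ± 4.72 (n = 3) at 5 dpi, against 21.2% ± 7.79 and 91.4% ± 7.91 among the members. In each of the 17 injured mice the members' share was the higher. The Scanorama patrolling share among the other myeloid cells was 85.0% ± 3.32 (n = 4) at 3.5 dpi, against 80.7% ± 10.0 among the members, and there the members were higher in 2 of 4 mice.

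When the BBKNN and Scanorama names were paired, the most common pair among members was Cx3cr1_hi M2 macrophage with patrolling monocyte, in 675 cells (36.4%). The next was inflammatory monocyte in both methods, in 373 cells (20.1%). A further 232 cells were Cx3cr1_hi macrophages to BBKNN and infiltrating monocytes to Scanorama. Members made up 143 of only 286 cells in all that Scanorama called Cx3cr1_lo M2 macrophages (50.0%), and 77 of those 143 were cells that BBKNN called endothelial.

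**Figure D4:**
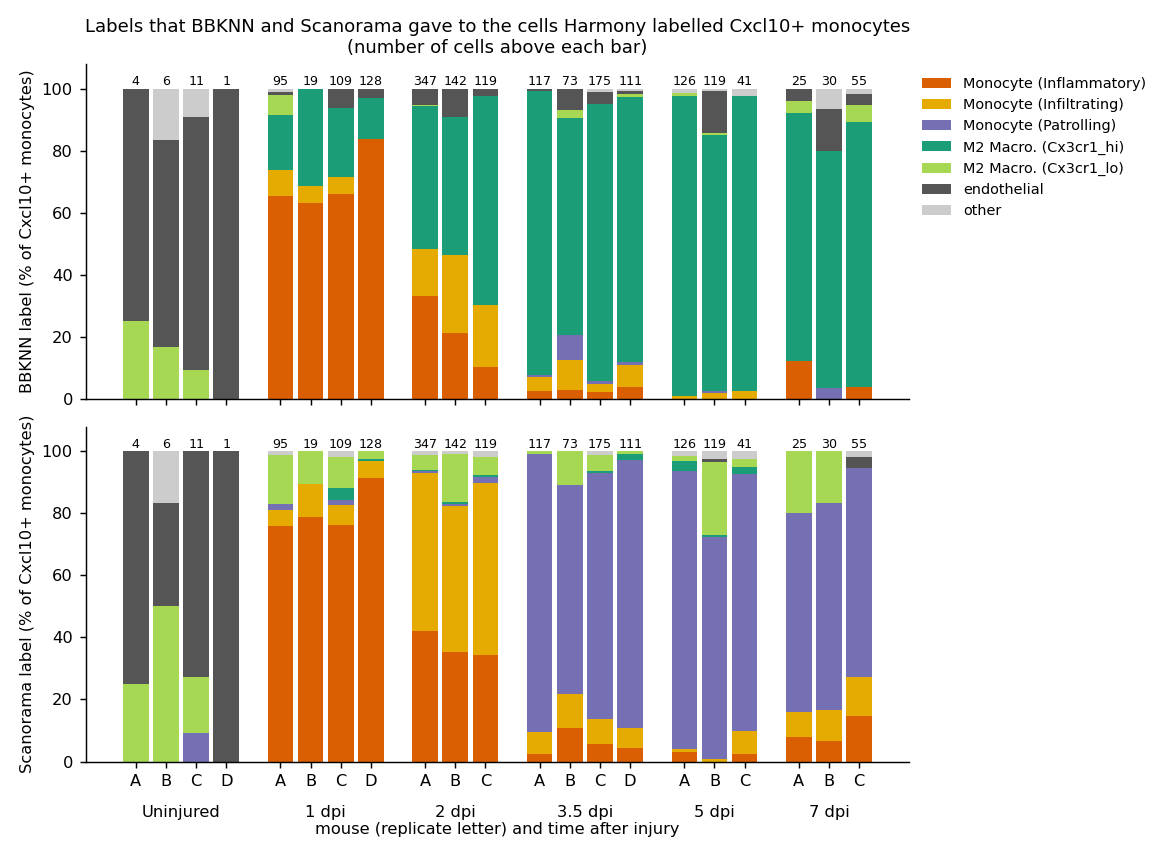
Labels from BBKNN (upper panel) and Scanorama (lower panel) as a percentage of the Cxcl10+ monocytes of each mouse (y axis), with mice ordered by time after injury (x axis) and the number of cells above each bar. Inflammatory monocyte is the main name at 1 dpi in both methods, Cx3cr1_hi M2 macrophage (BBKNN) and patrolling monocyte (Scanorama) are the main names from 3.5 dpi, and endothelial is the most frequent name among the 22 uninjured members, with the pericyte drawn under other.

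The 99 members that BBKNN called endothelial differed from the rest in their totals, which is given as a description. Their median was 3030 genes per cell (interquartile range 1713 to 3887) against 2431 (1631 to 3135) in the other 1754 members, and 6.61% against 4.41% mitochondrial UMIs. The DoubletFinder score, the share of simulated doublets among the nearest neighbours of a cell, had a median of 0.272 against 0.200. In the 9 injured mice with at least 3 cells of both kinds it was higher in the endothelial-called members in 9 of 9, and the number of genes in 8 of 9. The prefilter label was dendritic cell for 58 of the 99, capillary endothelium for 28, arterial endothelium for 8 and venous endothelium for 1. Among the other 38391 myeloid cells BBKNN called 15 endothelial (0.0391%), against 5.34% of the members. The source of these cells was not tested.

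The 17 endothelial-called members of uninjured muscle were poorer in RNA than those after injury. Their median was 3024 UMIs and 1215 genes per cell, with 14.5% mitochondrial UMIs, against 9519 UMIs, 3253 genes and 5.99% in the 82 such cells of injured muscle. The 14933 cells with a Harmony endothelial label had medians of 3359 UMIs, 1536 genes and 11.1% mitochondrial UMIs.

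Most per-cell totals of the members did not pass the test over time. Over the 17 injured mice, the medians of 11 measures were tested, and 1 of them passed (9.09%), the percentage of UMIs from protein-coding genes. Its mean was 93.7% ± 0.934 (SD, n = 4) at 1 dpi, 92.7% ± 0.391 for the 3 mice of 2 dpi and 94.0% ± 0.223 for the 4 mice of 3.5 dpi. By 5 dpi it was 91.7% ± 1.02 (n = 3) and by 7 dpi 91.7% ± 0.629 (n = 3), and the change passed (permutation test of the F statistic, adjusted p = 0.0359 over 11 measures). The 3.5 dpi mice lay above every 5 and 7 dpi mouse. The count of measures that passed was 0 to 7 when 1 mouse was left out, and it reached 7 without 1 dpi mouse B, which had only 19 members. It was 0 without 1 dpi mouse A or D, 2 dpi mouse B, 3.5 dpi mouse A, B or D, or 7 dpi mouse B, so the call on protein-coding transcripts rested on single mice.

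Members held a median of 7993 UMIs and 2440 genes per cell over all 1853 cells. The medians per mouse were 12476, 12363, 8436 and 10577 UMIs in the 1 dpi mice A to D, and 3171, 6579 and 11857 in the 2 dpi mice A to C. Sequencing depth differed in the same order among those 2 dpi mice, at 15035, 34812 and 57751 mean reads per cell, and its part in the values was not tested. At 3.5 dpi the medians were 16478, 13556, 7460 and 10090 UMIs, at 5 dpi 8417, 5503 and 8448, and at 7 dpi 7521, 8168 and 8892. The groups overlapped, and UMIs per cell did not pass the test (adjusted p = 0.192).

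Compared with the other myeloid cells of the same mouse, the difference in UMIs and genes changed with time. Members had more UMIs than these cells in all 4 mice at 1 dpi (mean difference 935 ± 642, SD) and fewer in all 3 at 2 dpi (-1974 ± 572). At 3.5 dpi the sign was mixed, with more in 1 of 4 mice (-864 ± 1603), and likewise at 5 dpi, with more in 1 of 3 (-594 ± 1032). At 7 dpi they had more in all 3 (1100 ± 985). For genes per cell the difference was 75.4 ± 131 at 1 dpi, -410 ± 133 at 2 dpi and -182 ± 203 at 3.5 dpi. By 5 dpi it was -153 ± 165, and by 7 dpi 305 ± 162. These differences varied over time beyond the spread between mice (permutation test, adjusted p = 0.0337 for UMIs and 0.00543 for genes, with 54.5% of the 11 measures called). Both values of each difference came from the same library. The make-up of the other myeloid cells changed as well. From 1 to 2 dpi neutrophils went from a mean of 18.8% to 3.54% of myeloid cells, and patrolling monocytes from 16.5% to 37.3%. After injury the medians per mouse averaged 2383 UMIs in neutrophils and 13163 in patrolling monocytes, against 9411 in members. The part of this make-up in the differences was not tested.

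Transcription factor transcripts were a larger part of the members' UMIs than of the other myeloid cells' in 17 of 17 injured mice, by a mean of 0.489 percentage points (SD 0.304). By type, the mouse medians averaged 4.93% in neutrophils, 3.82% in members, 3.63% in inflammatory monocytes and 2.86% in patrolling monocytes. The remaining myeloid types lay between both of those monocyte types. The members' medians were 3.88%, 4.02%, 3.64% and 3.46% at 1 dpi and 4.61%, 4.14% and 3.36% at 2 dpi. They were 2.91%, 3.16%, 3.72% and 3.16% at 3.5 dpi, 3.32%, 4.10% and 3.68% at 5 dpi, and 4.84%, 4.43% and 4.44% at 7 dpi, where all 3 mice were above the 3.5 and 5 dpi mice. The level itself did not pass the test over time (adjusted p = 0.0535), while the difference from the other myeloid cells did (permutation test, adjusted p = 0.0244), being widest at 2 dpi (0.849 ± 0.323) and at 7 dpi (0.697 ± 0.104).

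Antisense transcripts, from genes that lie opposite to another gene, were also higher in the members in 17 of 17 mice, with a median over mice of 0.0663% of UMIs against 0.0558%. Long intergenic noncoding RNA was higher in 14 of 17 mice. By type, its mouse medians averaged 2.27% in neutrophils, 1.51% in dendritic cells and 1.35% in Cx3cr1_hi M2 macrophages. They averaged 1.33% in members and less in the remaining types. Ribosomal protein transcripts were lower in the members in 15 of 17 mice, with a mean difference of -0.715 percentage points (SD 0.909), and protein-coding transcripts were lower in 14 of 17. Antisense medians averaged 0.107% in neutrophils, 0.0697% in members and 0.0518% to 0.0598% in the remaining types. Ribosomal medians averaged 9.50% in members, 9.48% in Cx3cr1_lo M2 macrophages, 9.07% in patrolling monocytes and 4.50% in neutrophils. The remaining types had higher ribosomal averages than members. Mitochondrial transcripts were higher in 8 mice and lower in 9, so the members were not set apart by them. Since the cluster was drawn from the same transcripts, that the members differed from other cells is a description and was not tested, and the permutation tests concern only how a difference varied over time. Strand was not among the values used, so how reads from overlapping genes were assigned could not be checked.

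**Figure D5:**
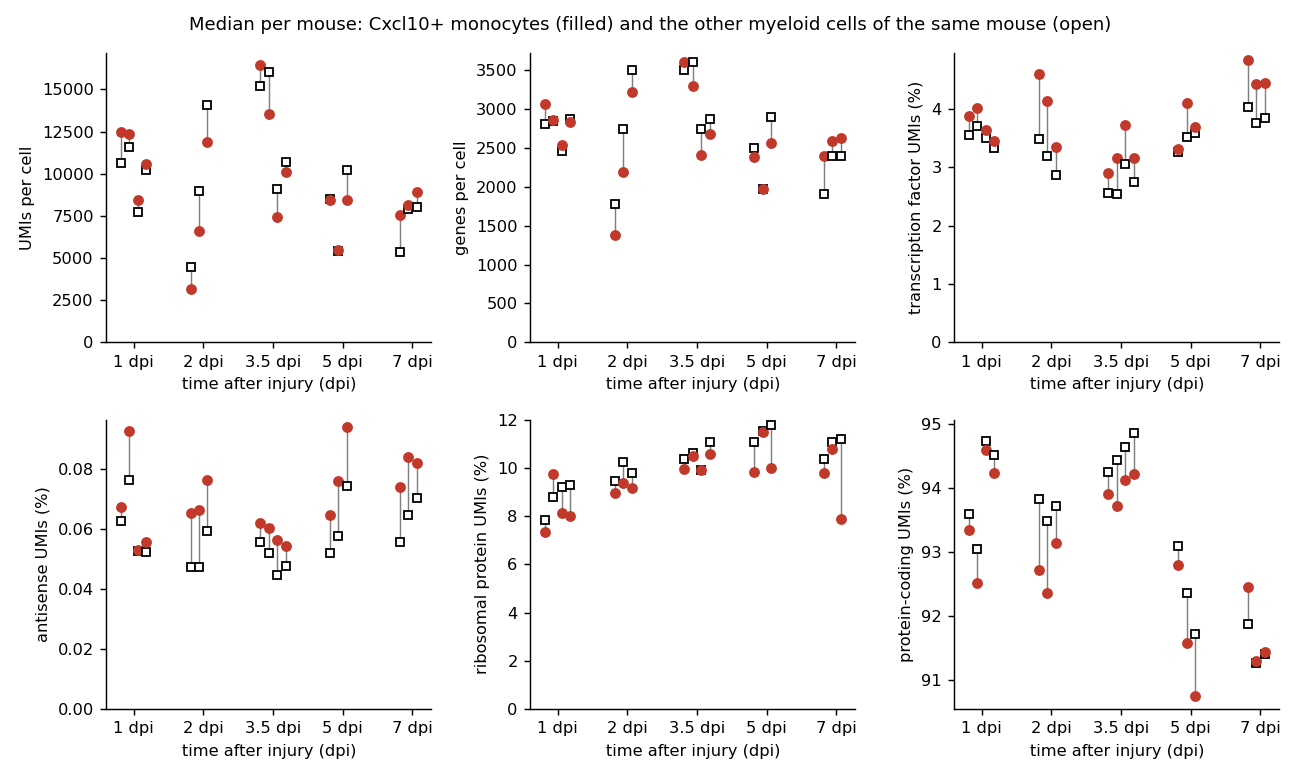
Median per mouse of UMIs, genes and 4 percentages of UMIs per cell (y axes) for Cxcl10+ monocytes (filled circles) and the other myeloid cells of the same mouse (open squares), by time after injury (x axis), with a line joining both values of a mouse. Members lie above the open squares for transcription factor and antisense UMIs in 17 of 17 mice and below them for UMIs per cell in all 3 mice at 2 dpi, and the protein-coding axis does not start at 0.

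Members with different BBKNN names were compared within the 6 mice of 1 and 2 dpi that held at least 10 cells of both names. Ribosomal protein transcripts were higher in the members called inflammatory monocytes than in those called Cx3cr1_hi M2 macrophages in 6 of 6 mice, with means of 9.26% ± 1.37 and 7.51% ± 1.56 (SD, n = 6). Heat shock protein transcripts were higher in 5 of 6 mice, at 0.802% ± 0.0496 against 0.664% ± 0.163. Long intergenic noncoding RNA was higher in 1 of 6 mice, at 1.08% ± 0.107 against 1.32% ± 0.192. Genes per cell were alike in the mean, at 2399 ± 569 and 2428 ± 756. These are descriptions, as the names were drawn from the same transcripts.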

How the data were processed

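The authors aligned reads to mm10 with Cell Ranger 3.1.0 and processed cells with Seurat 3.1.5, per the submitters' processing notes. They removed ambient RNA with SoupX and doublets with DoubletFinder, merged the libraries with other muscle data, and clustered and named cells after each integration. The deposited tables hold, for each cell, SoupX-corrected UMI totals, which are estimated counts and need not be whole. They also hold counts of genes per cell and mean reads per library, the percent of UMIs from named gene sets and the DoubletFinder score as a fraction, all as the authors deposited them.

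Members were found by their Harmony label. The members and lists were chosen with earlier results of these data known. Shares were compared with the mouse as the unit. Shares were put on the arcsine square root scale and group labels were permuted 100000 times to judge the F statistic (numpy 2.4.6, Python 3.11.15), with Benjamini-Hochberg adjustment over 23 types, 7 myeloid types, 6 ratios, 11 measures or 2 labels. Single time points were compared by two-sided exact permutation of the mean difference, adjusted over 207 tests for all cells and 63 for myeloid cells. Medians and label shares used mice with at least 10 members and groups with at least 2 such mice, which left out the uninjured group. Intervals are 95% Clopper-Pearson and cover counting error only. An alternative on numbers of cells used the edgeR 4.0.16 quasi-likelihood test in R 4.3.3. The permutation tests were checked on simulated counts. No gene was named by a rule on values, since no values of single genes were used, and the level of the marker Cxcl10 was not analysed here.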

Additional observations from a re-analysis of the deposited data

Results flagged for a closer look

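In 64 sets of 4 mice, 3 held a mouse far from the others by Dixon's criterion, which chance gives in about 1 of 20 sets. Myeloid cells were 36.7% of the cells in 1 dpi mouse B, against 66.2% to 71.0% in the others. The log2 ratio of Cxcl10+ monocytes to dendritic cells was -1.36 in 1 dpi mouse C, against -0.43 to -0.27. BBKNN called 83.6% of the members in 1 dpi mouse D inflammatory monocytes, against 63.2% to 66.1%.

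The difference between Cxcl10+ monocytes and the other myeloid cells of the same mouse varied between the time points after injury for 6 of 11 measures (permutation test of the F statistic over 17 mice, adjusted over 11 measures). In that permutation test the adjusted p was 0.0337 for UMIs per cell, 0.00543 for genes per cell and 0.0244 for the percentage from transcription factors. It was 0.0292 for antisense transcripts, 0.00495 for bidirectional promoter noncoding RNA and 0.00495 for protein-coding transcripts. The make-up of the other myeloid cells changed over the same times, and its part in these differences was not tested.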

How the results depend on the processing

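Over 926 recomputed values, 825 kept their direction and their side of the threshold, 46 came to pass it, 20 ceased to pass it, 21 counts moved and 14 directions reversed. Part of the 825 could not change and says nothing about stability. A comparison of single time points does not use mice of other times, and uninjured mice were never in the tests of measures and labels. Leaving such mice out gave the same value again. The test of the Cxcl10+ monocyte share of all cells passed under the other alternatives, with leave-one-out adjusted p of 5.75e-05 to 0.000759, and with edgeR (3.35e-06, or 7.31e-06 without TMM scaling). With immune cells as the denominator it reversed (0.382). The alternatives that leave out members called endothelial, or use the injured mice without 7 dpi mouse C, were chosen after seeing the data.

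For the share of myeloid cells the adjusted p was 0.316 with the stricter filter on cells, 0.0792 with at least 750 genes, 0.689 in injured mice only and 0.511 without 7 dpi mouse C as well. It reversed at 0.0211 without members that BBKNN called endothelial and at 0.00525 with members that both methods placed among monocytes or macrophages. Leaving out 1 mouse gave 0.00808 to 0.0562, the highest without uninjured mouse C.

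With myeloid cells as the denominator, 4 of 9 comparisons of time points did not overlap, against 6 with all cells (6 to 7 when 1 mouse was left out). The differences then reversed to -6.20, -5.39, -6.23, -5.72 and -3.88 percentage points at 1, 2, 3.5, 5 and 7 dpi against uninjured muscle, 0.51 at 5 against 3.5 dpi and 1.84 at 7 against 5 dpi. Of the 6 ratios, 5 passed in all mice, 3 without endothelial-called members and 4 to 6 when 1 mouse was left out. Without endothelial-called members the direction reversed against Cx3cr1_lo macrophages (0.0727) and inflammatory monocytes (0.00212).

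The count of per-cell measures that passed was the least stable. It was 1 in the values reported, 3 with the stricter filter, 2 with means over cells, 6 for differences from other myeloid cells, 5 with at least 5 cells per mouse, 7 with at least 20, 2 without endothelial-called members and 0 to 7 when 1 mouse was left out. For differences from other myeloid cells, mitochondrial (0.0608) and ribosomal (0.625) transcripts reversed. The causes of these changes were not tested. Both labels passed throughout (2 to 2).

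With the replicate letter as a replicate block the adjusted p was 0.000613 for the share of all cells and 0.0103 for that of myeloid cells, and 5 ratios, 1 measure and 2 labels passed. Taken one by one, each ratio, measure and label stayed on its own side of the threshold. The letters gave no sign of pairing the mice. A correlation of deviations above 0.1 was found in 20 of 48 same-letter pairs (median -0.0228). It was found in 59 of 135 different-letter pairs (median 0.0226), and 4 of 21 mice matched best with their own letter. This cannot show whether mice were processed together, and the day of collection was not modelled. Shares under the same name in BBKNN and Scanorama were not run, as neither has that name. The injured-only alternative for measures and labels equals the values reported. The 22 uninjured members, of which 5 were not called endothelial, limit each fold against uninjured muscle.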

Other observations

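T cells and natural killer cells, on which the receptor of Cxcl10 is found, were scarce while the Cxcl10+ monocytes were at their highest share and numerous later. At 2 dpi T cells were 1.20% ± 0.632 (SD, n = 3) of all cells. They were 2.80% ± 1.20 in the 4 mice of 3.5 dpi, 10.2% ± 3.92 in the 3 of 5 dpi and 9.41% ± 5.69 in the 3 of 7 dpi. Natural killer cells had means of 0.692% ± 0.327, 0.844% ± 1.03, 4.49% ± 0.986 and 1.76% ± 0.134 at the same times. The Cxcl10+ monocytes were then at 3.37%, 2.99%, 1.77% and 1.19%. All myeloid cells together were at 66.2%, 69.3%, 37.1% and 15.9%, so the later fall was not particular to the Cxcl10+ monocytes. In uninjured muscle and at 1 dpi T cells were 0.454% and 1.20%, and natural killer cells 0.0796% and 0.232%. B cell means lay between 0.325% and 0.572% at all times. T cells and natural killer cells were chosen after their values were seen. All are shares of the same cells, and no relation between them was tested.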
